A study of Mus musculus with 8 samples.

Results

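The corticotropin-releasing hormone (CRH) system was followed in the striatum of R6/2 mice and wild-type (WT) mice through 8 genes: Crh, Ucn, Crhbp, Crhr1, Crhr2, Nr3c1, Nr3c2 and Fkbp5. Every non-control array probe that the scanner files or the deposited table assigned to one of these symbols was taken, which gave 10 probes among the 55681 non-control probes of the array. Crh, Ucn, Crhbp, Crhr2, Nr3c2 and Fkbp5 had 1 probe each, and Crhr1 and Nr3c1 had 2 probes each. The set was chosen by the measured difference of Crh between the genotypes on these same arrays, where it was among the most reduced genes, and the other members were added for their roles around it. The Crh values are therefore a description and carry no test.

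The samples were 4 R6/2 and 4 WT striata of male mice aged 4 weeks, each hybridised to its own 1-colour array. R6/2 mice carry a transgene with exon 1 of human huntingtin and an expanded CAG repeat, driven by the human huntingtin promoter, and serve as a model of Huntington's disease. The labels name no other allele or treatment, and they speak of replicates without saying whether these were different animals. The p-values then cover only the spread between the samples at hand, part of which may be technical. Whole striatum was measured, and in such bulk tissue fewer cells of a type and less RNA per cell cannot be told apart.

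CRH is a peptide that starts the hormonal stress response when hypothalamic neurons release it towards the pituitary, and many neurons outside the hypothalamus, including interneurons of the forebrain, use it as a local signal. CRH and its relative urocortin bind the receptors CRHR1 and CRHR2, which couple mainly to the stimulatory G protein and cAMP, and a secreted binding protein captures both peptides. The stress response ends in the release of glucocorticoids, which act through the mineralocorticoid receptor and the glucocorticoid receptor, and FKBP5 is a cochaperone that lowers the hormone affinity of the glucocorticoid receptor and is itself induced by it.

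The probes that carry the results below are shown 5′ to 3′ as the deposited scanner files give them. They are the probe of the reduced peptide, the Crhr1 probes that differed in their separation of the genotypes, and the probe of the only member whose signal averaged higher in R6/2 striatum. Each is 60 bases long, and the first 30 bases are printed for Crh and Crhr1. Positions are those of the files, on build mm9. The capitals in the Nr3c2 probe mark the stop codon with which the coding sequence of the mineralocorticoid receptor ends. No mm9 annotation was used here, so exons and untranslated regions are not assigned.
Crh, chr3:19593482-19593541, minus strand: gtggctaggacgaaatgtgtaagctctttg
Crhr1, chr11:104036691-104036750, plus strand: cagcgacaggtggctcctgggacaactaac
Crhr1, chr11:104036182-104036241, plus strand: atcatggaaaactcccttctgagactgtaa
Nr3c2, chr8:79766370-79766429, plus strand: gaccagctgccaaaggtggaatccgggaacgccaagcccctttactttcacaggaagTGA

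Signals are given as a percentage of the array's own 75th percentile over non-control spots, which lay between 434 and 486 intensity units on the 8 arrays. Between 62.4% and 68.5% of spots per array were well above background, no spot was saturated, and the number of arrays limits the precision. All arrays were on 1 slide with 1 scan time, but the header places the R6/2 arrays in one array set and the WT arrays in the other, so array set and genotype cannot be told apart. Array correlations were 0.989 to 0.992 within R6/2, 0.983 to 0.991 within WT and 0.981 to 0.990 between the genotypes. The third WT array stood apart in glucocorticoid-induced genes, as described with Fkbp5. Its summed signal was also the highest of the 8 arrays for endothelial markers, at 2165% with the next array at 1790%. The same held for regulators of Crh transcription, at 7702% with the next array at 6022%.

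Crh signal was low in R6/2 striatum, and no probe of any other member passed the test. Of the 10 member probes, 9 were well above background on enough arrays to enter the fit, and 1 of these 9, that of Crh, passed an adjusted p of 0.05 in limma, which its choice on this contrast makes a description. Over the whole array 529 of 35121 tested probes passed, or 1.51%, of which 400, or 1.14%, were lower in R6/2 and 129, or 0.367%, were higher. With the replicate number as a block, 283 probes passed. Nothing is read from the member count against this share, because the same contrast guided the choice of Crh. The median difference over all tested probes was 0.0096 on the log2 scale. Groups that did not overlap were seen for 12.4% of tested probes, with 6.19% below all WT arrays and 6.19% above, and among the members for Crh and 1 of the 2 Crhr1 probes.

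**Figure D1:**
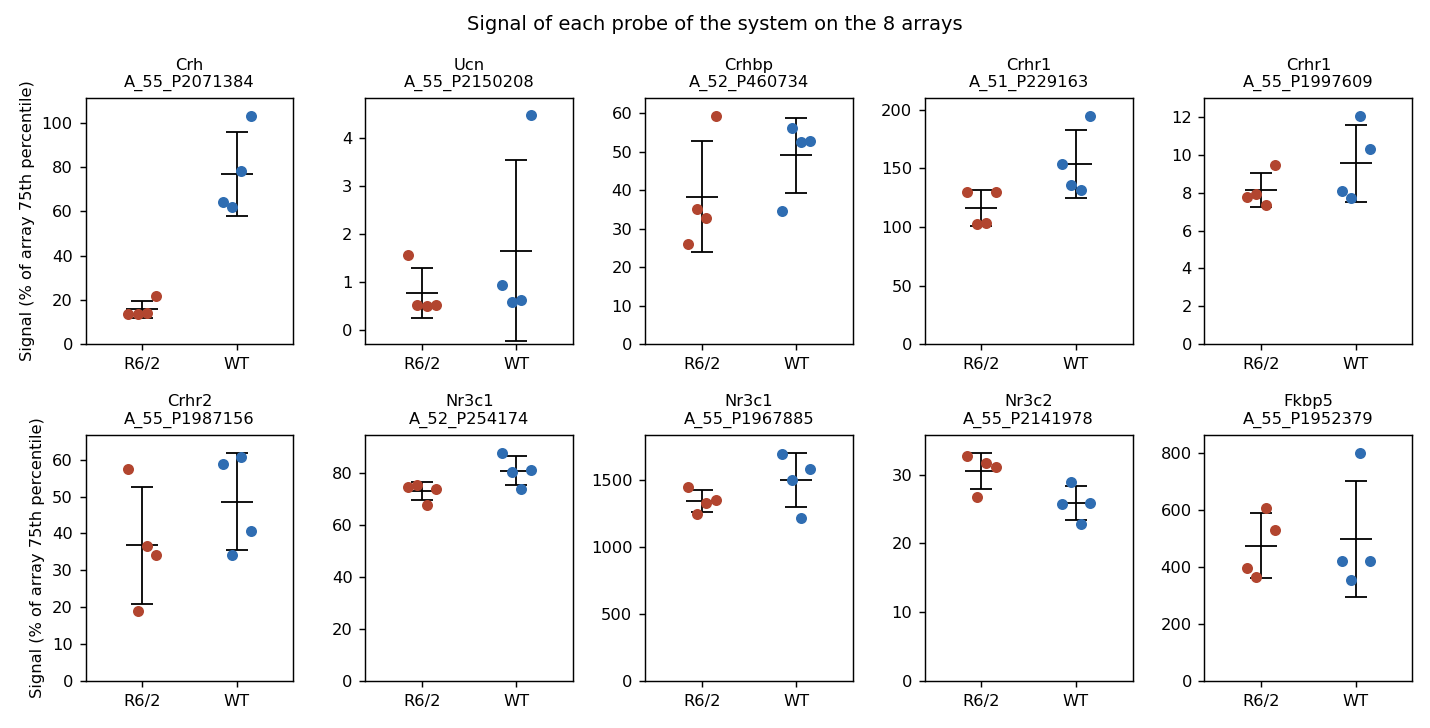
Signal of each of the 10 member probes as a percentage of the array's 75th percentile, on a linear axis, with 1 point per array (R6/2 red, WT blue), a bar at the mean and whiskers of 1 SD (n = 4 per genotype). The Crh points of R6/2 striatum lie between 13.6 and 21.6, below all WT points, while only 1 other probe, the first of Crhr1, has groups that do not overlap.

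Crh, which encodes the peptide itself, gave 13.8, 13.6, 13.9 and 21.6% on R6/2 arrays 1 to 4, against 64.3, 61.9, 78.1 and 102.9% on WT arrays 1 to 4. Every R6/2 array lay far below every WT array, and the fourth R6/2 array was the highest of its group. The means were 15.7 ± 3.93% in R6/2 striatum and 76.8 ± 18.8% in WT striatum (SD, n = 4 each). The fold was 4.88 lower in R6/2, a log2 difference of -2.29 ± 0.21 (SE) with a 95% interval of -2.77 to -1.81. Crh was chosen by this difference, and the SE and interval take no account of that choice. They are a description and no test. Crh ranked 19 from the lowest difference among the 35121 tested probes. The Crh probe was well above background on all 8 arrays, so the R6/2 values are measured levels and not bounds. Without the third WT array the log2 difference was -2.27. In the authors' deposited table, which holds the same 8 arrays, the fold was 4.84, lower in R6/2.

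Ucn, the gene of urocortin, the other peptide ligand, was not detected well enough to compare. Its signal was 1.55, 0.512, 0.484 and 0.525% on R6/2 arrays 1 to 4, against 0.936, 0.570, 0.615 and 4.47% on WT arrays 1 to 4. It was well above background on 0 R6/2 arrays and 1 WT array, the fourth, so no fold is given. The probe lies at chr5:31440362-31440421 on the minus strand.

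Crhbp encodes the secreted protein that binds CRH and urocortin and holds them away from the receptors. Its signal was 26.1, 35.2, 32.9 and 59.3% on R6/2 arrays 1 to 4, against 34.7, 56.3, 52.6 and 52.8% on WT arrays 1 to 4. The genotypes overlapped: the fourth R6/2 array was the highest of all 8, and the first WT array lay among the lower R6/2 values. The log2 difference was -0.40 ± 0.26 (SE; 95% interval -1.00 to 0.20; limma adjusted p = 0.486), which leaves room both for a loss to 0.500 of the WT level and for a small gain. Without the first R6/2 array the difference was -0.24, and without the fourth R6/2 array it was -0.63. The fourth R6/2 array was the highest R6/2 array for Crh as well. The probe lies at chr13:96201903-96201962 on the minus strand.

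Crhr1, the receptor with the higher affinity for CRH, was read by 2 probes that the files assign to the same transcript. The probe starting at 104036691 gave 129, 102, 103 and 130% on R6/2 arrays 1 to 4, against 153, 135, 132 and 194% on WT arrays 1 to 4. All R6/2 arrays were below all WT arrays, by a narrow margin between the highest R6/2 value and the lowest WT value. The log2 difference was -0.40 ± 0.15 (SE; 95% interval -0.74 to -0.06), and it did not pass the threshold after adjustment over the array (limma adjusted p = 0.226). With the replicate number as a block the SE was 0.076 and the limma adjusted p was 0.0813, still above the threshold.

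The other Crhr1 probe, starting at 104036182, gave 7.79, 7.94, 7.37 and 9.46% on R6/2 arrays 1 to 4, against 8.10, 7.73, 12.0 and 10.3% on WT arrays 1 to 4. Here the genotypes overlapped, since the second WT array was as low as most R6/2 arrays. Its log2 difference was -0.21 ± 0.16 (SE; 95% interval -0.57 to 0.15; limma adjusted p = 0.539). Both Crhr1 probes averaged lower in R6/2 striatum, and neither passed the test.

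Crhr2 encodes the receptor preferred by urocortins. Its signal varied widely within each genotype, at 57.5, 18.9, 36.5 and 34.1% on R6/2 arrays 1 to 4, against 58.8, 34.3, 60.9 and 40.7% on WT arrays 1 to 4. The genotypes overlapped as groups, and in each of the 4 same-numbered pairs the R6/2 array was the lower one. The log2 difference was -0.47 ± 0.34 (SE; 95% interval -1.24 to 0.30; limma adjusted p = 0.527). With the replicate block, which removes the variation that same-numbered arrays share, the SE was 0.16 and the limma adjusted p was 0.190. Without the first R6/2 array the difference was -0.72, and without the second R6/2 array it was -0.19. The probe is at chr6:55040043-55040102 on the minus strand.

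Nr3c1, the glucocorticoid receptor, was read by 2 probes on chromosome 18, minus strand, and both gave the same small difference. The probe at chr18:39574183-39574242 gave 74.4, 75.3, 67.8 and 73.9% on R6/2 arrays 1 to 4, against 87.6, 80.3, 73.9 and 81.1% on WT arrays 1 to 4. The genotypes met at the third WT array, which was as low as the R6/2 arrays. The log2 difference was -0.15 ± 0.08 (SE; 95% interval -0.32 to 0.03; limma adjusted p = 0.378), the narrowest interval among the members.

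The second Nr3c1 probe, at chr18:39571641-39571700, gave 1447, 1247, 1329 and 1345% on R6/2 arrays 1 to 4, against 1695, 1498, 1217 and 1576% on WT arrays 1 to 4. The third WT array was the lowest of all 8 and the other WT arrays were above every R6/2 array. The log2 difference was -0.15 ± 0.11 (SE; 95% interval -0.40 to 0.11; limma adjusted p = 0.546). Neither probe passed the test, and a decrease to 0.756 of the WT level is the lower end of the wider interval. The size of both differences depended on the processing. Scaled to each array's median, the first probe had -0.067 and the second -0.069. Without the third WT array they had -0.19 and -0.24.

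Nr3c2, the mineralocorticoid receptor, which binds corticosterone with high affinity, was the only member whose signal averaged higher in R6/2 striatum. It gave 32.7, 26.7, 31.7 and 31.0% on R6/2 arrays 1 to 4, against 25.7, 28.9, 22.8 and 25.9% on WT arrays 1 to 4. Of the R6/2 arrays, 3 exceeded all WT arrays, and the second R6/2 array lay below the second WT array. The log2 difference was 0.24 ± 0.10 (SE; 95% interval 0.02 to 0.47), with a limma adjusted p of 0.263, so the difference did not pass the threshold over the array.

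Fkbp5, the glucocorticoid-induced cochaperone, gave 395, 364, 606 and 529% on R6/2 arrays 1 to 4, against 420, 352, 799 and 419% on WT arrays 1 to 4. The third WT array was the highest of all 8, and R6/2 arrays 3 and 4 came next. The groups overlapped fully, with a log2 difference of -0.025 ± 0.27 (SE; 95% interval -0.66 to 0.60; limma adjusted p = 0.974). Without the third WT array the difference was 0.23 in the opposite direction, with a limma adjusted p of 0.590. The probe is at chr17:28536060-28536119 on the minus strand.

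**Figure D2:**
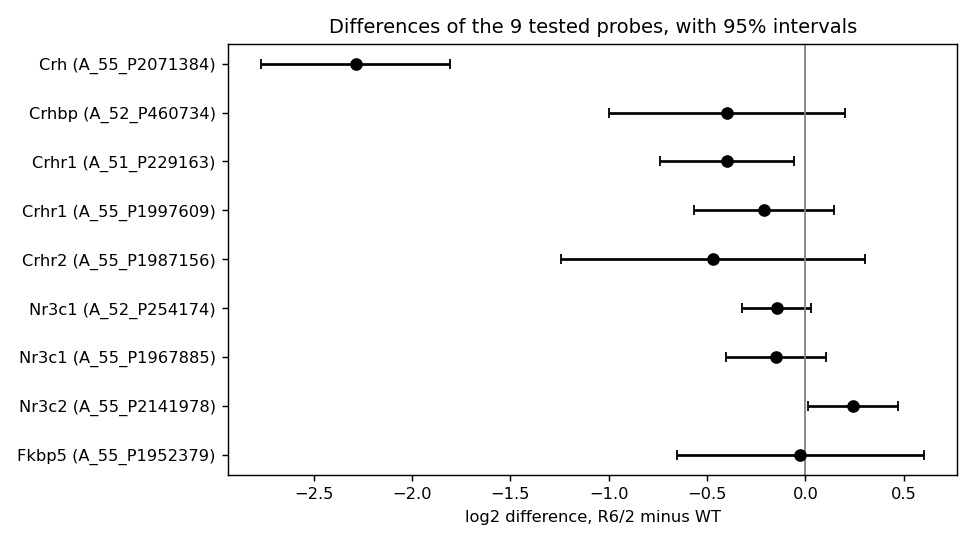
Log2 difference of R6/2 minus WT for the 9 tested member probes, with 95% intervals from limma. The Crh interval, from -2.77 to -1.81, is a description of the value by which the set was chosen. The intervals of the first Crhr1 probe and of Nr3c2 leave out 0 before adjustment.

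Over all 16881 genes tested, each read by its brightest tested probe, 3205 had an unadjusted p under 0.05, or 19.0%, and 45.6% had a negative difference, and the list counts that follow stand beside these shares. Markers of the neurons that could hold Crh and of regions next to the striatum were read beside it, because Crh is also made outside the striatum. Striatal projection neuron markers were present on all arrays, and 5 of 14 fell in R6/2 striatum in limma, 13 of 14 having a negative difference and a median of -0.59. An unadjusted p under 0.05 was reached by 10 of the 14. Over all tested genes, 1.95% were called in limma after adjustment, with 1.49% lower in R6/2. Their summed signal was 43732 to 57915% in R6/2 striatum and 75675 to 86310% in WT striatum. Penk, the enkephalin precursor of the indirect pathway, fell by 1.11 on the log2 scale (limma adjusted p = 0.0102), and Pde10a, a striatal phosphodiesterase, fell by 0.99 (limma adjusted p = 0.0246). With the replicate block Pde10a no longer passed (limma adjusted p = 0.0649).

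Of 11 striatal interneuron markers, 1 fell and 0 rose, 10 had a negative difference, the median was -0.57, and 8 had an unadjusted p under 0.05. The gene that passed was Th, tyrosine hydroxylase, which fell by 0.64 on the log2 scale (limma adjusted p = 0.0259), though not with the replicate block (limma adjusted p = 0.0668). The summed interneuron signal was 6329 to 9903% in R6/2 striatum and 10571 to 12975% in WT striatum, with no overlap. The 11 differences ran from -1.07 to 0.25. The part of these cells in the Crh difference was not tested.

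Hypothalamic markers summed to 65.4 to 85.6% in R6/2 striatum and 104 to 291% in WT striatum, again with no overlap, and 0 of 5 tested markers passed limma at an adjusted p of 0.05. Trh, the thyrotropin-releasing hormone gene, gave 59.1, 41.6, 39.5 and 39.7% on R6/2 arrays 1 to 4, against 260, 103, 78.5 and 145% on WT arrays 1 to 4. Its log2 difference was -1.58 (limma adjusted p = 0.0687). Trh was the largest part of the hypothalamic sum on every array, with 260 of 291% on the first WT array. Avp was also lower on every R6/2 array than on any WT array, at 13.7% or less. Agrp, Hcrt and Oxt overlapped between the genotypes, so the gap between the sums does not describe the list as a whole. Of the 5 tested differences, 3 were negative and 2 positive, Agrp with 0.48 and Hcrt with 0.26, and the median was -0.40. Sim1 and Otp, transcription factors of neurons of the paraventricular hypothalamus and not of CRH neurons alone, were not well above background on any of the 8 arrays. An unadjusted p under 0.05 was reached by 2 of the 5, Trh with 0.00177 and Avp with 0.00477.

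Thalamic markers summed to 128 to 160% in R6/2 striatum and 171 to 516% in WT striatum, with 3 of 3 differences negative, 0 called in limma and 1 with an unadjusted p under 0.05. Slc17a6, the vesicular glutamate transporter of thalamic neurons, gave 14.6, 22.4, 15.7 and 33.4% on R6/2 arrays 1 to 4, against 147, 45.4, 23.0 and 47.0% on WT arrays 1 to 4. The groups overlapped, since the third WT array lay below the fourth R6/2 array (log2 difference -1.35, limma adjusted p = 0.252). Without the first WT array the Slc17a6 difference was -0.85. The first WT array, which had the highest thalamic and hypothalamic sums, had 64.3% for Crh, and the third WT array, with the lowest sums among WT arrays, had 78.1%.

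Extended amygdala markers summed to 382 to 479% in R6/2 striatum and 447 to 842% in WT striatum, with 3 of 4 tested differences negative, 0 called in limma and 2 with an unadjusted p under 0.05. Prkcd, a kinase of central amygdala and thalamic neurons, had a log2 difference of -1.80 (limma adjusted p = 0.177), and the first WT array was highest with 484%. Without that array the difference was -1.14. Calcrl, another marker of these cells, reached no signal well above background. Cortical glutamatergic markers were negative in 9 of 9 cases with a median of -0.25, 0 called in limma and 2 with an unadjusted p under 0.05. Slc17a7, the cortical vesicular glutamate transporter, had a log2 difference of -0.63 (limma adjusted p = 0.208). The part of neighbouring tissue in the Crh difference was not tested.

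**Figure D3:**
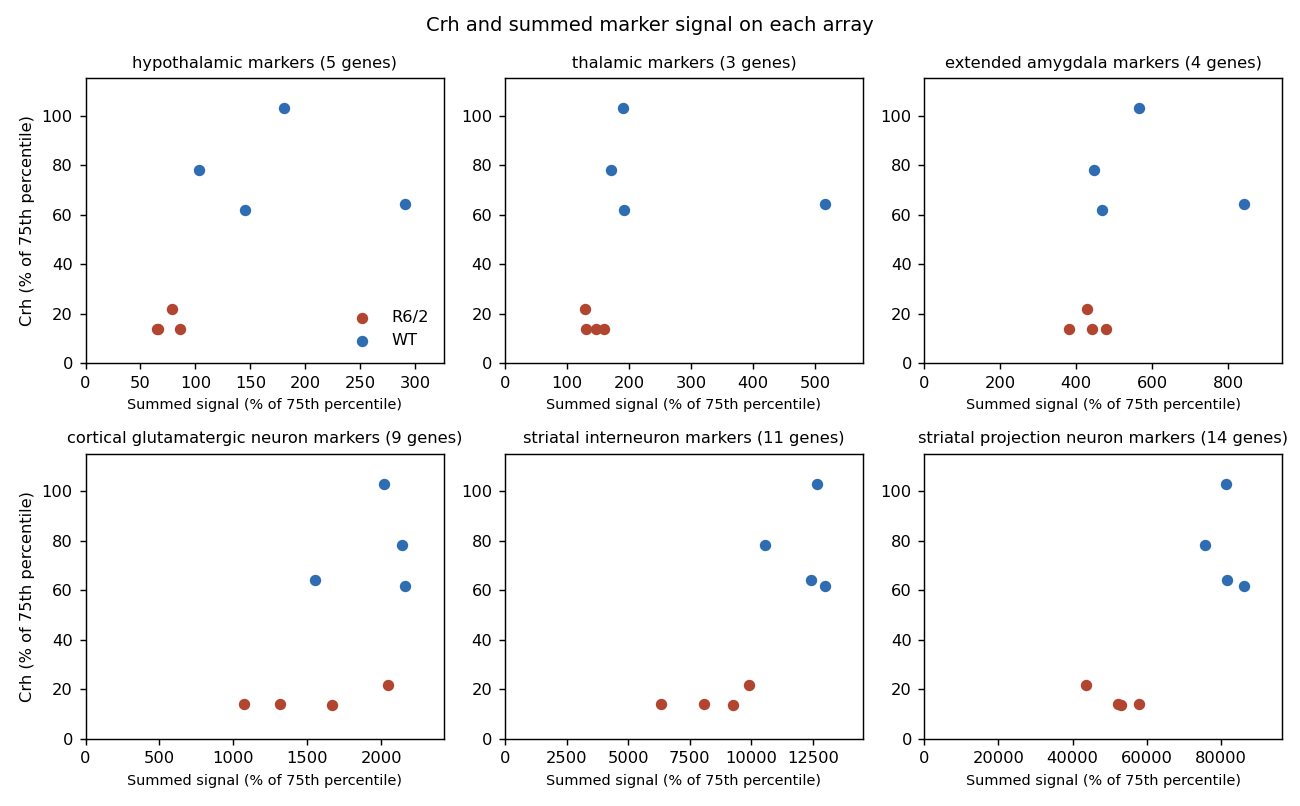
Crh signal on the vertical axis against the summed signal of 6 marker lists on the horizontal axis, both as a percentage of the array's 75th percentile on linear axes, with 1 point per array (R6/2 red, WT blue). The R6/2 points lie at or below 21.6 and the WT points at or above 61.9 for Crh, and the sums of the 2 genotypes share no range for hypothalamic, thalamic, interneuron and projection neuron markers. Trh is the largest part of the hypothalamic sum on every array.

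The glial, vascular and choroid plexus lists had 0 called genes in limma, 1 gene (Gfap) with an unadjusted p under 0.05, and medians of -0.05 for astrocyte, -0.02 for oligodendrocyte, -0.05 for microglia, -0.10 for endothelial and -0.16 for choroid plexus markers. Gfap, the astrocyte filament gene, had a difference of 0.34 by its brightest probe (limma adjusted p = 0.168), while its other probes had 1.20, which passed (limma adjusted p = 0.0431), and 2.33 (limma adjusted p = 0.0584). The 3 probes had the same direction and different sizes. Mobp, a myelin gene, had a difference of -0.45 (limma adjusted p = 0.300), and its other probes had -0.17 (limma adjusted p = 0.563) and -0.66 (limma adjusted p = 0.229). The microglial gene Aif1 had -0.31 (limma adjusted p = 0.514) and the tight-junction gene Cldn5 had -0.41 (limma adjusted p = 0.445). Ttr, which marks choroid plexus, had 4009 to 16543% in R6/2 striatum and 4891 to 22016% in WT striatum, with a difference of -0.25 (limma adjusted p = 0.869) that ran from -0.65 to 0.16 with single arrays left out.

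Other genes of the system were read from lists, each gene by its brightest tested probe. Over all 16881 tested genes, 330 were called, or 1.95%, with 251 lower in R6/2 (1.49%), 79 higher (0.468%) and a median difference of 0.022. Of the 10 peptides and receptors of the pituitary-adrenal axis, 5 were tested, 0 were called in limma, 2 had an unadjusted p under 0.05, 4 were negative, and the median was -0.40. Avp, vasopressin, which acts with CRH on the pituitary, gave 4.66, 4.75, 4.69 and 4.02% on R6/2 arrays 1 to 4, against 13.4, 12.7, 4.99 and 13.7% on WT arrays 1 to 4. All R6/2 arrays were below all WT arrays, the third WT array only just. Its difference was -1.20 (limma adjusted p = 0.105), and -0.46 with normexp background correction (limma adjusted p = 0.0682). Without the third WT array, the lowest WT array for Avp, the difference was -1.55 (limma adjusted p = 0.00354). Leaving out any other single array gave limma adjusted p-values of 0.184 to 0.229. Pomc, the precursor of adrenocorticotropic hormone, had a difference of -0.60 (limma adjusted p = 0.278), and of -0.34 without the second WT array.

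Genes that process neuropeptides or build dense-core vesicles had small differences. Of 11 tested, 0 were called in limma, 1 had an unadjusted p under 0.05, 5 were negative, the median was 0.04, and the range was -0.41 to 0.35. At the low end stood Chgb, a granin of dense-core vesicles, with -0.41 (limma adjusted p = 0.0934). Vgf, another granin, had -0.26 (limma adjusted p = 0.295).

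Of 16 CRH receptor signalling genes, 1 fell and 0 rose in limma, with 9 negative and a median of -0.02. An unadjusted p under 0.05 was reached by 2 of the 16, 1 lower and 1 higher, against 19.0% of all genes. Plcb1, a phospholipase that couples receptors of the Gq class to calcium, gave 779, 879, 896 and 844% on R6/2 arrays 1 to 4, against 1140, 1433, 1264 and 1157% on WT arrays 1 to 4. All its R6/2 arrays lay below its WT arrays, and it fell by 0.55 on the log2 scale (limma adjusted p = 0.0373). With the replicate block the adjusted p was 0.0515. The other Plcb1 probes had differences of -0.41 (limma adjusted p = 0.0720) and -0.34 (limma adjusted p = 0.155).

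Of 12 regulators of Crh transcription, 10 were tested, 0 were called in limma, 0 had an unadjusted p under 0.05, 3 were negative, and the median was 0.09. Crem, whose repressor form shuts off cAMP-driven Crh transcription, had a difference of 0.17 (limma adjusted p = 0.393), and its other probe had -0.0051 (limma adjusted p = 0.984). Crtc1, a coactivator of CREB, had -0.14 (limma adjusted p = 0.532).

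On the side of the corticosteroid receptors, the chaperones and the coregulators were measured with small differences. Of 15 chaperones and cochaperones, 0 were called in limma, 1 had an unadjusted p under 0.05, 5 were negative, and the median was 0.08. Dnajb1, a cochaperone of HSP70, had 0.25 (limma adjusted p = 0.287) and Fkbp4, which opposes FKBP5 on the receptor complex, had 0.21 (limma adjusted p = 0.379). Of 10 coregulators, 0 were called in limma by their brightest probe, 1 had an unadjusted p under 0.05, 5 were negative, and the median was -0.0046. Ncor1, a corepressor, had 0.24 (limma adjusted p = 0.157), but one of its other 3 probes rose by 0.54 (limma adjusted p = 0.0445), though not with the replicate block (limma adjusted p = 0.0668). Ep300, a histone acetyltransferase, had 0.15 (limma adjusted p = 0.301).

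Genes that glucocorticoids induce in brain numbered 23, all tested, with 0 called in limma, 2 with an unadjusted p under 0.05 (against 19.0% of all genes), 16 negative and a median of -0.14. These counts were not taken without the third WT array, on which the direction of the list mean depends, as given below. Klf9, a transcription factor induced by the receptor, gave 1412, 1453, 1366 and 1398% on R6/2 arrays 1 to 4, against 1821, 1758, 1597 and 1583% on WT arrays 1 to 4. The groups did not overlap, and the difference of -0.26 did not pass the threshold (limma adjusted p = 0.121), except with normexp background correction (limma adjusted p = 0.0481). Fam107a, a stress-induced actin regulator, had -0.41 (limma adjusted p = 0.214), while its other probe had -0.12 (limma adjusted p = 0.873).

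The third WT array had a mean log2 signal over these 23 genes that was 0.89 above the genes' own means, against 0.035 at most on any other array. WT arrays 1, 2 and 4 had list means of 0.035, -0.17 and -0.38. R6/2 arrays 1 to 4 had -0.25, -0.033, 0.011 and -0.11. The list mean was therefore not lower in R6/2 striatum without the third WT array. Lcn2, lipocalin, which belongs to the list and was picked after its values were seen, gave 689% on that array, against 13.5, 12.9 and 12.2% on the other WT arrays and 11.9 to 13.8% on the R6/2 arrays. Fkbp5 and the list mean correlated over the 8 arrays with a Pearson r of 0.788 (exact permutation p = 0.0300) and a Spearman rho of 0.619 (exact permutation p = 0.115), both two-sided, the only such relation tested. Without the third WT and the third R6/2 array, the 2 farthest from the Fkbp5 median, r was 0.038 over 6 arrays, so the relation did not hold without them. Without the third WT array alone r was 0.33, and without the third R6/2 array alone it was 0.84, both over 7 arrays and chosen after seeing the data. With the genotype means removed, r over the 8 arrays was 0.81.

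**Figure D4:**
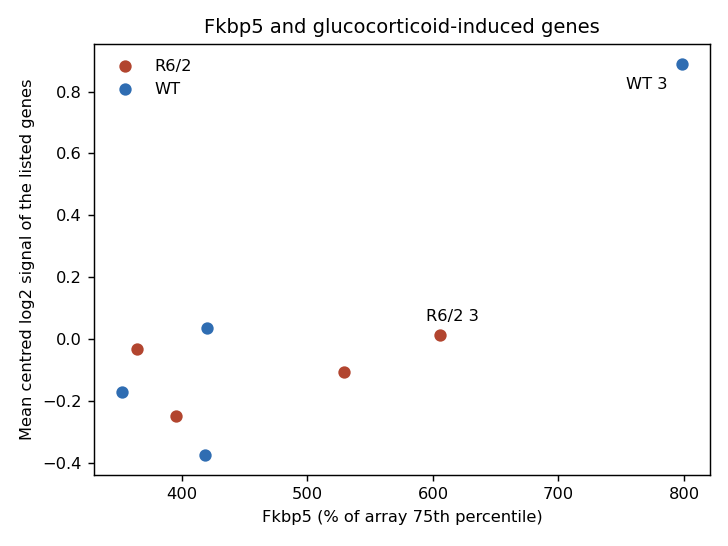
Fkbp5 signal (percentage of the array's 75th percentile, horizontal axis) against the mean of 23 glucocorticoid-induced genes, each centred on its own mean on the log2 scale (vertical axis), with 1 point per array (R6/2 red, WT blue). The third WT array stands alone at 799 and 0.89, while the remaining 7 arrays have list means of at most 0.035.

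Corticosteroid metabolism and transport had 6 of 8 genes tested, 1 called lower in limma, 0 called higher, 3 negative and a median of 0.0021. An unadjusted p under 0.05 was reached by 1 of the 6, against 19.0% of all genes. H6pd, which supplies the cofactor for the enzyme that regenerates active glucocorticoid, gave 28.8, 28.6, 32.5 and 26.5% on R6/2 arrays 1 to 4, against 38.7, 38.2, 42.0 and 39.1% on WT arrays 1 to 4. All R6/2 arrays were below all WT arrays, and H6pd fell by 0.44 on the log2 scale (limma adjusted p = 0.0447). With the replicate block the adjusted p was 0.0590.

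The genes whose signal over the 8 arrays was most like that of Crh were found among 23694 tested probes with 1 gene symbol. They were Grik2, a kainate receptor subunit, with a Pearson r of 0.986, Kash5, a meiotic protein of the nuclear envelope, with 0.985, Myh8, a myosin heavy chain, with 0.980, Sbsn with 0.980 and Lpgat1, a lipid acyltransferase, with 0.979. All points share the genotype difference that marks Crh. With the genotype means removed, r was 0.80 for Grik2, 0.79 for Kash5, 0.81 for Myh8, 0.81 for Sbsn and 0.75 for Lpgat1. The genes were picked by their r over these same arrays, which favours a high r here too. These values are therefore no test of a likeness to Crh beyond the genotype. Their log2 differences were -0.58 for Grik2, -1.17 for Kash5, -1.11 for Myh8, -0.51 for Sbsn and -0.31 for Lpgat1.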

How the data were processed

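Per the labels' protocols, striatal RNA was taken up in a phenol reagent and cleaned on columns before labelling with Cy3. The intensity values in the deposited scanner files are a mean signal, a local background and a processed signal, which per the file headers was background-corrected and spatially detrended by the array maker's extraction software. A deposited table of all samples holds the authors' log2 values, which from the values are the log2 processed signal minus a constant per array that leaves 75.0% of values below 0 (column medians -3.48 to -3.27), without centring of genes. The authors' table further holds fold ratios without a sign, their direction, and the authors' p-values.

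Each processed signal was divided by its array's 75th percentile over non-control spots and put on the log2 scale. Spots flagged as outliers were left out, and spots of a probe were averaged. A probe was tested when well above background on at least 4 of 8 arrays. R6/2 and WT were compared in limma 3.58.1 (lmFit, then eBayes; R 4.3.3), with Benjamini-Hochberg adjustment over 35121 probes and a threshold of 0.05. The fit was tested on simulated data in which 200 of 35121 probes were changed. It recovered 32% of 1.5-fold, 64% of 2-fold, 88% of 4-fold and 98% of 8-fold changes. A 1.5-fold change was thus missed more often than called in that simulation. The rates belong to that share of changed probes, which need not be the share on the arrays here. Genes were named through transcript accession (26762 probes), gene number (5056) or symbol (373) in the GRCm38.p6 gene table, used for names only, and 23490 probes had no name.

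The members and the gene lists were chosen with earlier results of these data known. Named genes were all members, up to 4 called genes of smallest p in each of 8 pathway lists (without a call, the 2 lowest p), up to 2 in each of 11 marker lists (or 1), and the 5 genes most like Crh. Deviations of same-numbered arrays from their genotype means correlated at 0.222, 0.183, 0.356 and 0.133, so the replicate numbers, which also give the position within an array set, were treated as pairs in an alternative with a replicate block. Other alternatives were array weights, normexp, quantile and median scaling, the authors' values, other filters on dim probes, and each array left out.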

Additional observations from a re-analysis of the deposited data

Results flagged for a closer look

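Of 20 groups of 4 arrays (10 member probes in each genotype), 3 had an array far from the others of its group by Dixon's criterion, which chance alone meets in about 1 of 20 groups. For Crh this was the fourth R6/2 array, with 21.6% of the 75th percentile. The other R6/2 arrays had 13.6 to 13.9%, and that array was still below all WT arrays. For Crhbp it was the first WT array, with 34.7%, against 52.6 to 56.3% on the other WT arrays. For Ucn it was the first R6/2 array, with 1.55%, a signal that was not well above background.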

How the results depend on the processing

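The count of called member probes stayed at 1 in 16 alternatives, and the Crh difference ran from -2.45 (without the fourth R6/2 array) to -1.67 (normexp). The call was that of Crh each time. It remains a description, because Crh was chosen on these same arrays. The other tested member probes passed in none of the 16, and all but Fkbp5 kept their direction. Fkbp5 had 0.054 with array weights, 0.054 with median scaling, and -0.17 to 0.23 with single arrays left out, including 0.051 without the first R6/2, 0.091 without the second R6/2 and 0.23 without the third WT array. The cause was not tested. Called probes over the array, 529 as reported, numbered 982 with array weights, 981 with normexp, 228 with median scaling, 110 without a filter on dim probes, 283 with the replicate block, and 100 to 505 with single arrays left out. Leaving out any array but the third WT array moved the count by over 1.5 times. The share of lower calls was 75.6%, against 63.5% with quantile and 55.7% with median scaling, 80.6% with the replicate block, 83.6% without the filter and up to 89.1% with an array left out. The single calls of Plcb1 and H6pd held in 5 of 16 alternatives each, Th in 6, Pde10a in 8 and Penk in 16. The replicate block ended calls of Plcb1, H6pd, Pde10a, Th and 1 Ncor1 probe, and changed no other call among the probes of the 26 genes named from the lists. Avp passed with array weights (adjusted p = 0.0192), Klf9 with normexp (0.0481) and Trh with array weights (0.0326), normexp (0.0483) and without the third WT array (0.0484). Of those 26 genes, 9 moved by over 1.5 times with some array left out, none of them called. All arrays were on 1 slide with 1 scan time, so the slide or scan block was not run. The array signal over background limits Ucn.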
